A study of Mus musculus with 10 samples.

Results

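The Vps, Snx and Chmp genes encode much of the machinery that sorts cargo at endosomes, and chromatin accessibility around them was measured in regulatory T cells (Tregs) with and without the lipid kinase Vps34. The members were all peaks of the counts table that lay in the body, or within 10 kb, of a protein-coding gene whose symbol starts with Vps, Snx or Chmp followed by a number. This rule took 75 genes, of which 74 had at least 1 peak, and 443 of the 97385 peaks. There were 218 peaks at 34 Vps genes, 189 at 30 Snx genes and 37 at 10 Chmp genes, and 1 peak, in an intron of Snx16 and over a UTR exon of a Chmp4c transcript, was counted for both. Vps11 had no peak within the window. A promoter peak lay within 1 kb of an annotated transcript start: 87 peaks were at a start of the member gene itself, 53 were at the start of a neighbouring gene and 303 were elsewhere, and all 443 passed the filter on low counts.

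ATAC-seq, which reads open chromatin by where a transposase can insert, was run on CD4+Foxp3-YFP+TCRb+ Treg cells sorted from 10-day-old mice. Control mice carried Foxp3Cre with Pik3c3 +/+ or +/fl (Pik3c3 encodes Vps34), and both genotypes were pooled under 1 label. Vps34-deficient mice carried Foxp3Cre with Pik3c3 fl/fl, so every group, controls included, carried the Cre-YFP allele, which is expressed from the Foxp3 locus and deletes only in cells that have switched it on. Cells came from spleen (2 control and 4 Vps34-deficient libraries) and lung (2 control and 2 Vps34-deficient libraries). These spleen numbers are those of the labels, and the methods text of the study gives them the other way round. The labels do not say that the libraries of a group came from separate animals, so p-values measure only the spread between these libraries. A lower count in a sorted population can come from fewer cells with the site open or from a less open site in each cell, and these cannot be told apart here.

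Vps34 makes phosphatidylinositol 3-phosphate (PI3P) on early endosomes. The sorting nexins (Snx) share a PX domain, which in many of them, though not all, binds that lipid. Retromer (Vps26, Vps29 and Vps35) and retriever (Vps26c, Vps29 and Vps35l) return receptors from endosomes to the Golgi or the cell surface. ESCRT-I and ESCRT-II (Vps28, Vps37 and Vps25, Vps36 among them) gather ubiquitinated receptors for degradation, ESCRT-III (the Chmp proteins) cuts off the vesicles, and the ATPases Vps4a and Vps4b take ESCRT-III apart. HOPS and CORVET tether endosomes and lysosomes, GARP and EARP tether vesicles that return from endosomes, and the Vps13 proteins move lipids between membranes. Vps72, a subunit of chromatin-remodelling complexes, shares the symbol and not the pathway.

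Sequences are shown for 8 member peaks on which the results turn: 4 that were lower in Vps34-deficient cells (2 of Snx29, and those of Snx20 and Snx30), 2 that differed with both tissue and genotype (Snx16 and Vps37b), and 2 of a class of peaks 208 to 214 bp wide that is described with the tissue comparison (Snx32 and Vps36). Each is the plus strand of GRCm38 (RefSeq GRCm38.p6), at most 300 bp around the peak's centre. Capitals mark the AP-1 motif, whose letters are TGANTCA, and the RUNX motif, spelled TGTGGTT, on either strand. The E-box, CLEAR core, ETS, TCF and GATA motifs, spelled out with the motif counts, were searched as well and are in none of these windows.
Snx29 intron, 856-bp peak, chr16:11659201-11659500: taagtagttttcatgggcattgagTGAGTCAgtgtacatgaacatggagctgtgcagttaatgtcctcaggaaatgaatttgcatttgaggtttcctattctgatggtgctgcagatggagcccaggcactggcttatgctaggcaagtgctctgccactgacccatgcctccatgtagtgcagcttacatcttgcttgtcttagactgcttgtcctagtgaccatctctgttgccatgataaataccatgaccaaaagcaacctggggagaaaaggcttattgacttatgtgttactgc
Snx29 intron, 610-bp peak, chr16:11456277-11456576: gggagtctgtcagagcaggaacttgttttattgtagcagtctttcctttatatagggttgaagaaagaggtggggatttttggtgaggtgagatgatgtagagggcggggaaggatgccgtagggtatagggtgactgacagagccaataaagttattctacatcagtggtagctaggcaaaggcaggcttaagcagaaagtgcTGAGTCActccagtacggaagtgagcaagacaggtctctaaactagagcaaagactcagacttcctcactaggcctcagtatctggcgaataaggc
Snx20 downstream, chr8:88618651-88618950: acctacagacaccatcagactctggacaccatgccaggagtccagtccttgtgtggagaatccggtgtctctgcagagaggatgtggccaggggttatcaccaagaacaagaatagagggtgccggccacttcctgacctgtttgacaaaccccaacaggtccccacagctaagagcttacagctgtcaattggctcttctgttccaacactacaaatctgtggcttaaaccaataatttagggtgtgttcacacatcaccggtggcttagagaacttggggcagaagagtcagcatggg
Snx30 second promoter peak, chr4:59806638-59806937: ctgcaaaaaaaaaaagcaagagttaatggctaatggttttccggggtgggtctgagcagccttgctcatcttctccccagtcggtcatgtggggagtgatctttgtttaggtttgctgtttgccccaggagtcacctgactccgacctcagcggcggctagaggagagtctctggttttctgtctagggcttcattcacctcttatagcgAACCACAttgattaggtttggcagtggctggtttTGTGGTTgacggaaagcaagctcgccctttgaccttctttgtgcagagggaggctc
Snx16 upstream, chr3:10446580-10446879: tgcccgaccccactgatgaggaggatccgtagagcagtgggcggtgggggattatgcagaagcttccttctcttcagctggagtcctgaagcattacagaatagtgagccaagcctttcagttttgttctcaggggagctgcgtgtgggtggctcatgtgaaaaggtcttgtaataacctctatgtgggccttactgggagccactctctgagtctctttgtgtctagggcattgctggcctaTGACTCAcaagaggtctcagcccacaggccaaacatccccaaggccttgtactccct
Vps37b intron, 203-bp peak, chr5:124007029-124007231: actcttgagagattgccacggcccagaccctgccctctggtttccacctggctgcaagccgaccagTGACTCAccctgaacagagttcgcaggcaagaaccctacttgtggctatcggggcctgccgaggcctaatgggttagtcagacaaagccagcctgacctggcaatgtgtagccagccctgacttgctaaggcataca
Snx32 intron, 211-bp peak, chr19:5506218-5506428: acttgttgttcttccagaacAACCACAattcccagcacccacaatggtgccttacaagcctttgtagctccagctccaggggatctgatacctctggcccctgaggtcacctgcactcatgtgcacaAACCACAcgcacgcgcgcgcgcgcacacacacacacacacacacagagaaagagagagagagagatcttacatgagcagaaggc
Vps36 intron, 211-bp peak, chr8:22213070-22213280: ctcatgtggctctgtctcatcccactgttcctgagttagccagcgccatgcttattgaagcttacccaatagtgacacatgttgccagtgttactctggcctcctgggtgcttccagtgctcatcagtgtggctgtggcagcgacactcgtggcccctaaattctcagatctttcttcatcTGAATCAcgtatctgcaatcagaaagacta
The pair of Snx29 windows and those of Snx16, Vps37b and Vps36 hold the AP-1 letters once each, those of Snx30 and Snx32 hold the RUNX letters 2 times each, and that of Snx20 holds none of the 7 motifs. No window overlaps an annotated UTR.

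The libraries held between 9405823 and 22439699 counts each, and 3 of the 4 from lung were the shallowest. Between 91.5% and 96.5% of the counts were even, so most fragments entered the table as 2 read ends. The promoter peak of Pik3c3 itself lay between 53.9 and 66.8 CPM (counts scaled to a common library size) in all 10 libraries (log2 fold change 0.08, adjusted p = 0.492, edgeR), which does not test the deletion, since the place of the deleted part is not given in the sources used here. All 6 Treg markers on the list (Foxp3, Cd4, Cd3e, Il2ra, Ctla4 and Ikzf2) had promoter peaks. There was no promoter peak at Cd79a and Ms4a1 (B cells), Csf1r and Lyz2 (myeloid cells), Sftpc and Scgb1a1 (lung epithelium), Klrb1c and Ncr1 (NK cells) or Tek (endothelium). Other genes of these lists did have promoter peaks, which summed in each library to 16.29 to 23.7 CPM for B cells (Pax5 and Cd79b), 24.15 to 36.04 for CD8 and NK cells (Eomes, Cd8b1 and Cd8a), 25.74 to 34.3 for lung epithelium (Epcam, Cdh1 and Nkx2-1) and 29.44 to 38.94 for endothelium (Pecam1, Kdr and Cdh5), against 198 to 268.2 for the Treg list. The Treg sum pools 10 promoter peaks, against 3 or 4 in each of these lists. Foxp3 alone lay at 65.63 to 88.92 CPM. Cd4 lay at 3.826 to 8.299 CPM, under every value of Pax5, Eomes, Epcam and Pecam1. The promoter peaks of the effector Treg list (Klrg1, Il1rl1 and Pparg, with none at Il10) summed to 21.07 to 22.52 CPM in spleen controls, 11.52 to 15.59 in spleen Vps34-deficient, 34.9 to 51.82 in lung controls and 16.94 to 16.97 in lung Vps34-deficient libraries. The myeloid list (promoters of Spi1, Cd14 and Cebpa) summed to 41.48 to 42.4, 29.25 to 34.35, 48.64 to 55.21 and 31.53 to 32.1 CPM in the same order. Both sums were lower in Vps34-deficient than in control libraries of each tissue and higher in lung than in spleen controls, while the myeloid sums of Vps34-deficient spleen and lung overlapped. In lung the CD8 and NK sums were 24.15 to 28.36 CPM in control and 33.6 to 34.74 in Vps34-deficient libraries, and in spleen the lung epithelium sums were 33.99 to 34.3 in control and 27.95 to 32.15 in Vps34-deficient libraries. The B cell sums in spleen were 16.29 to 17.03 in control and 17.98 to 22.27 in Vps34-deficient libraries, so each of these 3 lists separated by genotype in 1 tissue. The part of these lists in the results below was not tested.

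Own-promoter peaks were present at 72 of the 75 endosomal sorting genes, at widely different levels. Vps13b and Vps45 had peaks but none at an own promoter, and Vps11 had no peak. Taking the promoter peak with the highest mean count of each of the 72 genes that had one, the level per length, averaged over the 10 libraries, ran from 5.52 CPM per kb of peak at Chmp4c to 120.3 at Chmp4b, with a median of 34.85. Both of these genes encode the ESCRT-III subunit that forms the constricting filament, so the lowest and the highest promoter belong to close relatives. The HOPS and CORVET subunits Vps41 (89.4) and Vps8 (83.2) and the retromer-associated nexin Snx1 (84.3) followed Chmp4b, and Snx31 (5.87), Chmp6 (6.36) and Snx7 (7.24) followed Chmp4c. By group, the medians ran from 63.4 CPM per kb over the 2 retriever genes, through 38.7 over the 4 retromer core genes, 35.3 over the 10 ESCRT-III genes and 18.1 over the 5 GARP and EARP genes, to 16.6 over Vps72 and Vps9d1.

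**Figure D1:**
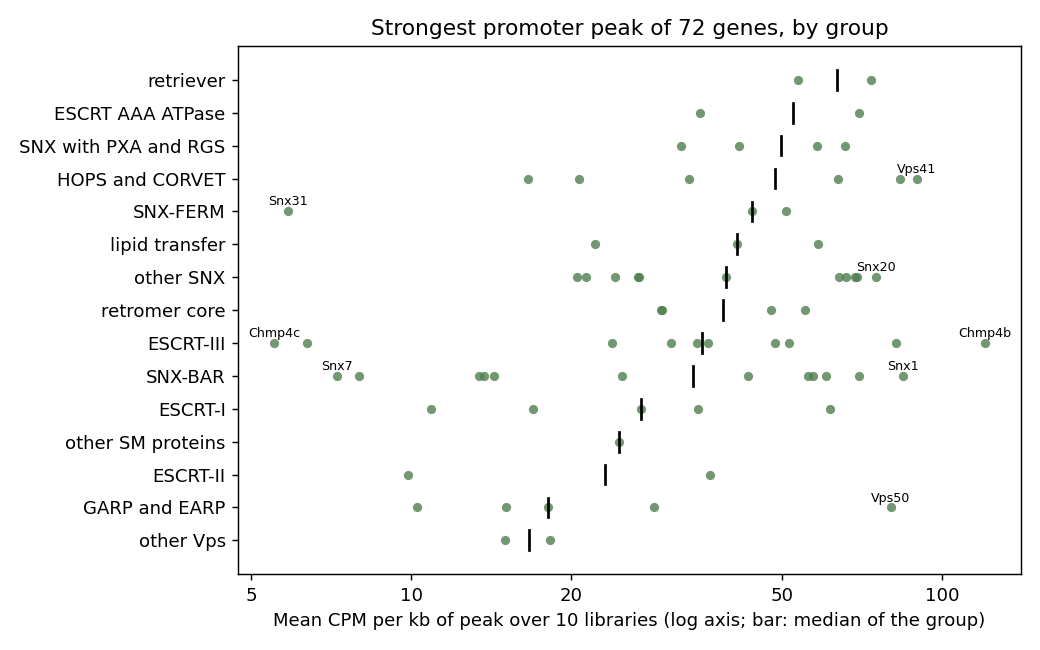
Level of the strongest promoter peak of each of 72 Vps, Snx and Chmp genes (points; horizontal log axis, mean CPM per kb of peak over 10 libraries), by complex or protein group, with the median of each group as a bar. Chmp4c (5.52) and Chmp4b (120.3), both ESCRT-III genes, are the extremes.

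Differences between tissues were asked of the 6 spleen and 4 lung libraries, averaged over the genotypes. A peak was called where edgeR's quasi-likelihood test, adjusted over all 97109 peaks tested, gave p below 0.05 and the log2 fold change passed 0.5. At the members' own promoters, 1 of 87 peaks (1.15%) was called higher in lung, against 4.9% of all promoter peaks, and 1 was called lower, against 2.73%. Among the 303 members away from promoters, 56 (18.5%) were called higher in lung, against 21.3% of such peaks in the table, and 26 (8.58%) lower, against 7.33%. With the 2 lower calls at promoters of neighbouring genes, this made 57 peaks of 27 genes higher in lung and 29 peaks of 18 genes lower.

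Width divided the higher calls, around the commonest width in the table, 210 bp. In the whole table, 85.1% of the 12496 peaks that were 208 to 214 bp wide were called higher in lung and 0.6% lower. Of the 35 members of that width, none of them at an own promoter, 31 (88.6%) were called higher and 1 lower, and their median log2 fold change was 1.37, against 1.40 for all peaks of that width. Without this width class, 25 of the 268 members away from promoters (9.33%) were higher in lung and 25 (9.33%) lower, against 9.78% and 8.55% of such peaks in the table, and the total of higher calls fell from 57 to 26. The cause of the width pattern was not tested. The intronic peak of Snx32 (211 bp, printed above) is the clearest example. It measured 86.0 and 122.5 CPM in spleen control, 157.2, 139.5, 109.4 and 167.7 in spleen Vps34-deficient, 297.3 and 188.2 in lung control and 318.7 and 344.4 in lung Vps34-deficient libraries. Every lung library lay above every spleen library (log2 fold change 1.21, SE 0.10, adjusted p = 1.18e-08). Like peaks were called in Snx11, chr11:96770076-96770285 (210 bp, log2 fold change 1.19, SE 0.12), and in Vps36 (211 bp, 1.55, SE 0.17). For Vps36 the lung values were 23.6 and 11.3 CPM in control and 25.1 and 23.2 in Vps34-deficient libraries, and the spleen values ran from 5.08 to 10.9.

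**Figure D2:**
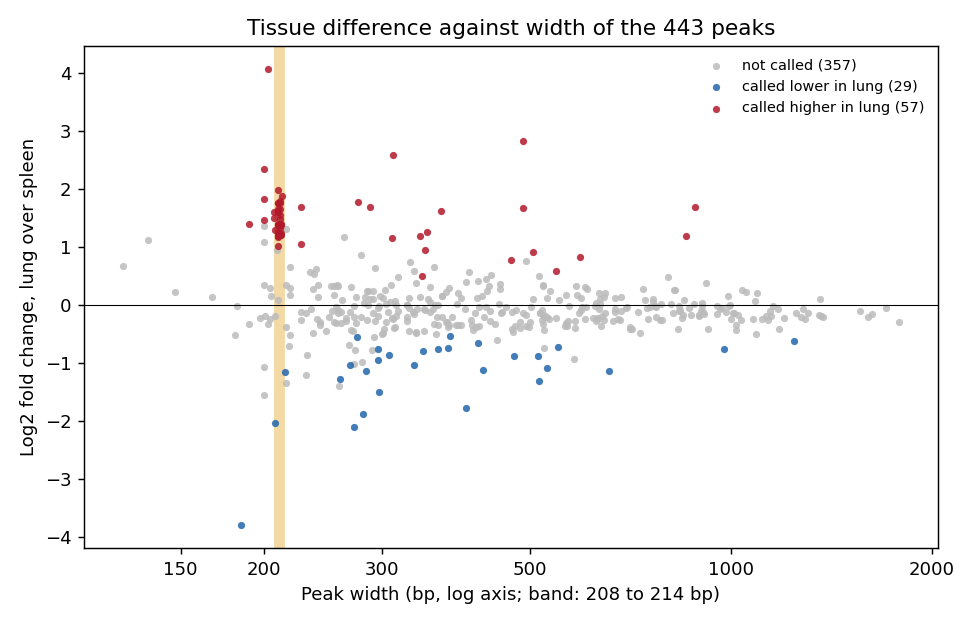
Log2 fold change of lung over spleen (vertical) against peak width in bp (horizontal log axis) for the 443 member peaks, with peaks called higher in red, called lower in blue and not called in grey. The shaded band, 208 to 214 bp, holds 31 of the 57 peaks called higher in lung.

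Vps37b, which encodes an ESCRT-I subunit, held the 3 peaks with the smallest p for tissue outside that width class. Of its 15 peaks 7 were called higher in lung, all of other widths, and 1 lower, against 9.78% and 8.55% of the table's peaks away from promoters outside that class. The first by p, chr5:124002598-124003086, lies downstream of Vps37b over an exon and UTR of the neighbouring gene Hip1r, so it cannot be given to Vps37b alone. Its level was 0.948 and 1.10 CPM in spleen control, 1.66, 0.970, 1.39 and 1.28 in spleen Vps34-deficient, 7.85 and 11.6 in lung control and 7.82 and 7.72 in lung Vps34-deficient libraries. The tissues did not overlap (log2 fold change 2.84, SE 0.22, adjusted p = 4.93e-09). Between genotypes the spleen libraries overlapped and the lung controls lay above the lung Vps34-deficient libraries, at the closest by 7.85 to 7.82 CPM, and genotype was not called. A second peak over Hip1r, chr5:124000837-124001325, gave 3.17 to 4.26 CPM in spleen, 14.7 and 15.0 in lung control and 10.1 and 9.87 in lung Vps34-deficient libraries (1.68, SE 0.17, adjusted p = 4.45e-08). In the Vps37b intron, the 203-bp peak shown above had 2 to 4 counts in each spleen library, 47 and 70 in lung controls and 12 and 12 in lung Vps34-deficient libraries. It was thus nearly closed in spleen and, within lung, lower without Vps34 (adjusted p = 2.64e-07 for tissue and 0.0134 for genotype in lung, edgeR; the latter not without lung control 2 or either lung Vps34-deficient library); with so few spleen counts no tissue fold is given. The promoter of Vps37b itself was not called in either direction. Without each library in turn, the count of higher Vps37b peaks for tissue lay at 6 or 7. The 1 lower call became 0 without spleen control 2, spleen Vps34-deficient 4, lung control 1 or lung Vps34-deficient 2. Without lung control 2 it became 2.

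Snx7 had the only own promoter called higher in lung. The peak, chr3:117868773-117869140, lay between 1.09 and 1.648 CPM in the 6 spleen libraries and measured 3.71 and 4.71 in lung control and 2.50 and 7.08 in lung Vps34-deficient libraries. Lung lay above spleen throughout (log2 fold change 1.62, SE 0.27, adjusted p = 6.41e-05), with a wide spread between the last pair. The promoter of Snx22 was the one called lower (-0.53, SE 0.17, adjusted p = 0.0159; not called without lung Vps34-deficient 2). With no fold threshold, 17 of the 72 strongest promoter peaks were lower in lung and 1 higher, against 12.2% lower and 6.75% higher among all promoter peaks, and their median log2 fold change was -0.14, against -0.07. The 72 were chosen for the highest mean count of each gene, and all promoter peaks were not. These shares therefore compare unlike sets.

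Peaks lower in lung lay near genes of several complexes. Upstream of Snx16, which encodes a PI3P-binding nexin of endosomes, the peak chr3:10446471-10446987 gave 7.67 and 6.46 CPM in spleen control, 11.7, 8.73, 10.2 and 11.6 in spleen Vps34-deficient, 1.75 and 2.65 in lung control and 5.99 and 3.86 in lung Vps34-deficient libraries. Every lung value lay under every spleen value (log2 fold change -1.30, SE 0.19, adjusted p = 1.26e-05). In an intron of the retromer gene Vps26a, chr10:62477169-62477683, spleen libraries held 9.91 to 12.2 CPM and lung libraries 4.72 to 8.10 (-0.88, SE 0.17, adjusted p = 0.000237). Both peaks upstream of Vps13d, chr4:145200026-145201001 and chr4:145201478-145201841, were lower in lung by -0.75 each (SE 0.15), as were a peak over a coding exon of Vps13c, chr9:67890185-67890841 (-1.13, SE 0.25), and an intronic peak of Snx18, chr13:113595194-113595744 (-0.72, SE 0.15). Within 10 kb of each gene, Vps13d had 4 of 25 peaks higher (3 of them 208 to 214 bp wide) and 5 lower, Vps53 had 4 of 8 higher (2 of them of that width), Vps37c had 3 of 11 lower, and Vps35l had 1 of 7 higher and 3 lower, against 18.4% higher and 6.51% lower over all peaks tested. The 3 lower Vps37c peaks became 0 without lung Vps34-deficient 2 and 5 without lung control 2, while the higher count of Vps53 lay at 3 or 4 without each library in turn. One of the lower Vps13d peaks, in an intron at chr4:145135567-145135751, rests on few counts, 4 to 18 in each spleen library and 0 to 2 in each lung library. Some complexes had no call in this comparison: the 5 peaks of Vps4a and Vps4b and the 7 of Vps72 and Vps9d1 were not called. Leaving out any single library moved the 57 higher calls to between 51 and 58 and the 29 lower calls to between 20 and 43.

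Loss of Vps34 was asked first as a difference averaged over spleen and lung. No own promoter was called higher, against 0.844% of all promoter peaks, and 3 of 87 (3.45%) were lower, against 1.41%. Away from promoters, 13 of 303 (4.29%) were higher, against 4.1%, and 20 (6.6%) were lower, against 4.63%. The width class entered the higher calls, with 5 of its 35 members (14.3%) against 14.3% of the class in the table, and gave no lower call, against 0.36%. Without it, 8 of 268 members (2.99%) were higher, against 2.28%, and 20 (7.46%) lower, against 5.4%. The totals were 13 peaks of 10 genes higher and 23 peaks of 16 genes lower; the higher count fell to 7 without spleen control 1 and 6 without lung control 2, and the lower count to 14 without lung Vps34-deficient 1.

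Snx29, a sorting nexin gene with 39 peaks over a long body, had the largest share of the lower calls. Its intronic peak chr16:11658923-11659778 (the 856-bp peak shown above) measured 7.24 and 5.77 CPM in spleen control, 1.79, 0.727, 1.13 and 1.28 in spleen Vps34-deficient, 11.6 and 11.0 in lung control and 2.66 and 5.15 in lung Vps34-deficient libraries. In each tissue every Vps34-deficient library lay under both controls (log2 fold change -2.04, SE 0.23, adjusted p = 2.07e-06; -2.42, SE 0.29, in spleen and -1.55, SE 0.33, in lung), and lung exceeded spleen (1.19, SE 0.24). The 610-bp peak in the same gene, chr16:11456122-11456731, was far more open, with 37.3 and 40.2, then 26.6, 30.7, 24.2 and 31.2, then 51.5 and 62.0, then 34.2 and 24.0 CPM in the same order of groups. It was lower in Vps34-deficient cells on average (-0.67, SE 0.11, adjusted p = 0.000284), again without overlap within a tissue. Less open Snx29 peaks, chr16:11399810-11400694 (-1.28, SE 0.31), chr16:11455786-11456012 (-1.20, SE 0.28) and chr16:11370200-11370511, were lower as well, the last on 0 to 6 counts in each spleen library. The first of these was not called without spleen control 1, and the last not without lung control 2 or either lung Vps34-deficient library. Of these 5 lower peaks, 4 were also called higher in lung than in spleen, and the 610-bp peak was not. Over all peaks tested, 4.06% were called lower. For tissue, 12 of the 39 Snx29 peaks were higher in lung, 4 of them 208 to 214 bp wide, and 1 was lower, against 18.4% and 6.51% of all peaks tested. Without each library in turn, the higher count lay between 10 and 12. The lower count became 0 without spleen control 2, lung control 1 or lung Vps34-deficient 1, and 2 without spleen Vps34-deficient 1. The Snx29 promoter, at 28.0 to 37.3 CPM in the 10 libraries, was called in neither comparison (0.05, SE 0.09, for genotype).

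**Figure D3:**
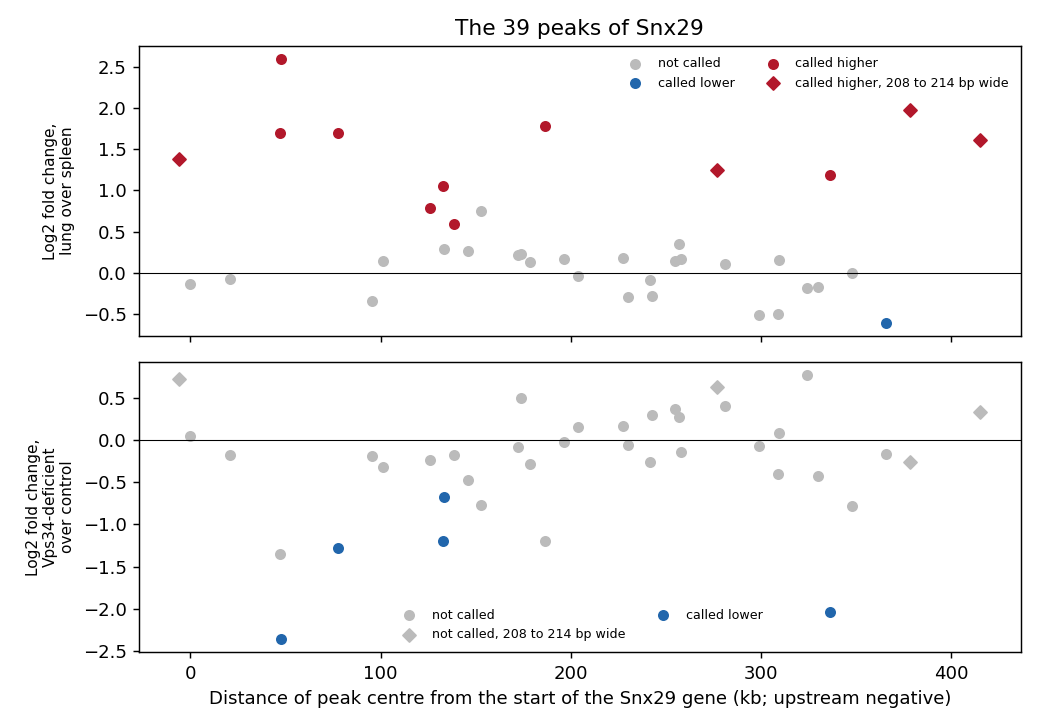
Log2 fold changes of the 39 Snx29 peaks, lung over spleen (upper) and Vps34-deficient over control averaged over tissues (lower), against the distance of the peak centre from the gene start in kb (upstream negative). Red and blue mark peaks called higher and lower, and diamonds peaks 208 to 214 bp wide; the 5 blue points of the lower panel are spread through the gene, and the promoter at distance 0 lies near 0 in both panels.

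Other peaks lower without Vps34 lay at genes of lipid transfer, tethering and sorting. In an intron of Vps13b, which encodes a lipid transfer protein of the Golgi, chr15:35662427-35662821 gave 6.98 and 6.32 CPM in spleen control, 1.79, 1.82, 3.13 and 3.40 in spleen Vps34-deficient, 5.24 and 7.36 in lung control and 1.66 and 1.5 in lung Vps34-deficient libraries. The genotypes did not overlap in either tissue (log2 fold change -1.60, SE 0.23, adjusted p = 4.6e-05). Downstream of Snx20, whose product binds the selectin ligand PSGL-1, chr8:88618629-88618971 gave 2.93 and 2.75, then 0.966, 0.727, 0.738 and 1.84, then 4.36 and 4.27, then 0.832 and 0.643 CPM. All 6 Vps34-deficient libraries were under all 4 controls (-1.83, SE 0.31, adjusted p = 0.000458), and an intronic Snx20 peak, chr8:88633350-88633779, was lower too (-0.68, SE 0.16). Vps8, which encodes a CORVET subunit that binds the early endosomal GTPase Rab5, had 2 lower intronic peaks. The second of them is given with the lung comparison, since its averaged call (-0.71) was lost in 6 of the 10 fits that each left out 1 library: those without spleen control 1, spleen Vps34-deficient 4 or any lung library. The first, chr16:21590787-21591237, held 9.39 and 10.7, then 5.52, 6.43, 7.30 and 5.39, then 13.5 and 13.1, then 6.99 and 6.86 CPM, with all controls above all Vps34-deficient libraries (-0.79, SE 0.15, adjusted p = 0.00106).

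The 3 own-promoter peaks lower on average were all at Snx genes of the SNX-BAR group, whose proteins bend membranes. At Snx30 the peak was not the main promoter but a second one, 771 bp from a transcript start in an intron, chr4:59806611-59806964. It gave 10.3 and 11.7, then 8.0, 5.33, 6.86 and 8.80, then 13.4 and 16.3, then 8.23 and 8.36 CPM, so Vps34-deficient libraries were lower within each tissue (-0.70, SE 0.15, adjusted p = 0.0046). The Snx2 peak, chr18:53177247-53177598, also lay in an intron, 931 bp from a start (-0.53, SE 0.14, adjusted p = 0.0169; not called without lung Vps34-deficient 2), while the Snx8 peak, chr5:140388965-140389703, covered the start itself (-0.52, SE 0.14, adjusted p = 0.0227; not called without spleen control 2, spleen Vps34-deficient 4, lung control 2 or lung Vps34-deficient 2). Both passed the fold threshold narrowly.

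**Figure D4:**
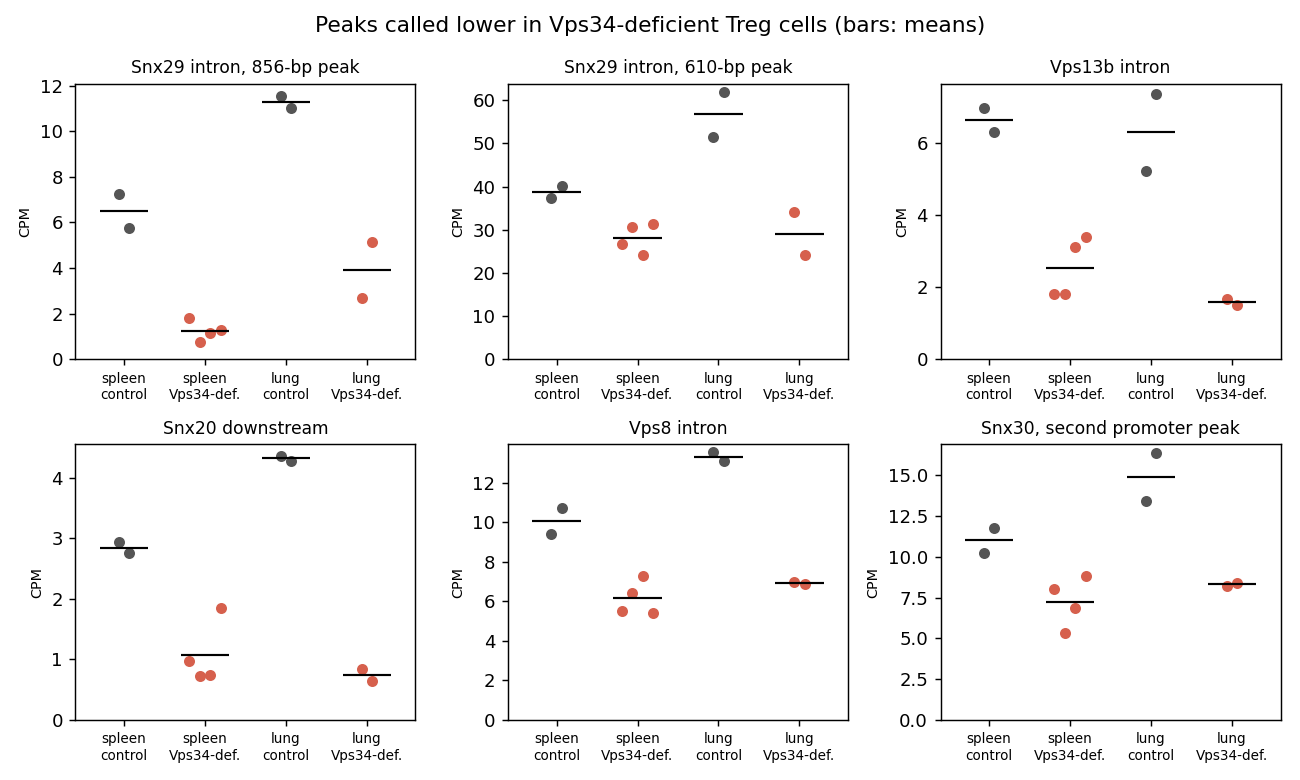
CPM in each of the 10 libraries (points) at 6 peaks called lower in Vps34-deficient Treg cells, by tissue and genotype, with group means as bars; grey points are controls and red points Vps34-deficient. At all 6 peaks the Vps34-deficient libraries of a tissue lie under the controls of that tissue.

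The 13 peaks that were higher without Vps34 lay at Vps13c, Vps13d, Snx16, Snx18, Snx25, Snx27, Vps36, Vps41 and Vps52, with the shared Snx16 peak counted for Chmp4c as well. Over a coding exon of Vps13d, which encodes a lipid transfer protein needed for mitochondrial shape and clearance, chr4:145177518-145178228 gave 6.64 and 4.40 CPM in spleen control, 15.2, 10.2, 9.90 and 9.79 in spleen Vps34-deficient, 3.49 and 5.45 in lung control and 7.99 and 8.15 in lung Vps34-deficient libraries. All 6 Vps34-deficient libraries were above all 4 controls (log2 fold change 0.94, SE 0.18, adjusted p = 0.00182). A coding-exon peak of Vps13c, chr9:67883478-67884030, likewise separated the genotypes, at 3.02 to 3.24 CPM in the 4 controls and 4.85 to 6.21 in the 6 Vps34-deficient libraries (0.85, SE 0.18, adjusted p = 0.00471). The peak shared by Snx16 (intron) and Chmp4c (UTR exon), chr3:10427176-10427764, measured 12.2 and 15.0, then 19.2, 16.5, 19.1 and 20.3, then 16.1 and 8.83, then 27.6 and 21.2 CPM. Vps34-deficient libraries were higher in each tissue (0.69, SE 0.15, adjusted p = 0.00471), and the call was lost without lung control 2 (0.50). The Snx16 upstream peak given with the tissue comparison was higher as well (0.75, SE 0.18, adjusted p = 0.0113), as was the Snx18 intronic peak (0.67, SE 0.15, adjusted p = 0.00617), at 9.48 and 12.2, then 18.4, 16.2, 15.6 and 15.5, then 4.58 and 7.36, then 12.0 and 8.79 CPM. A 212-bp peak in an intron of the HOPS gene Vps41, chr13:18723632-18723843, is of the width class (1.25, SE 0.30, adjusted p = 0.00862), and its call was lost without spleen control 1.

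**Figure D5:**
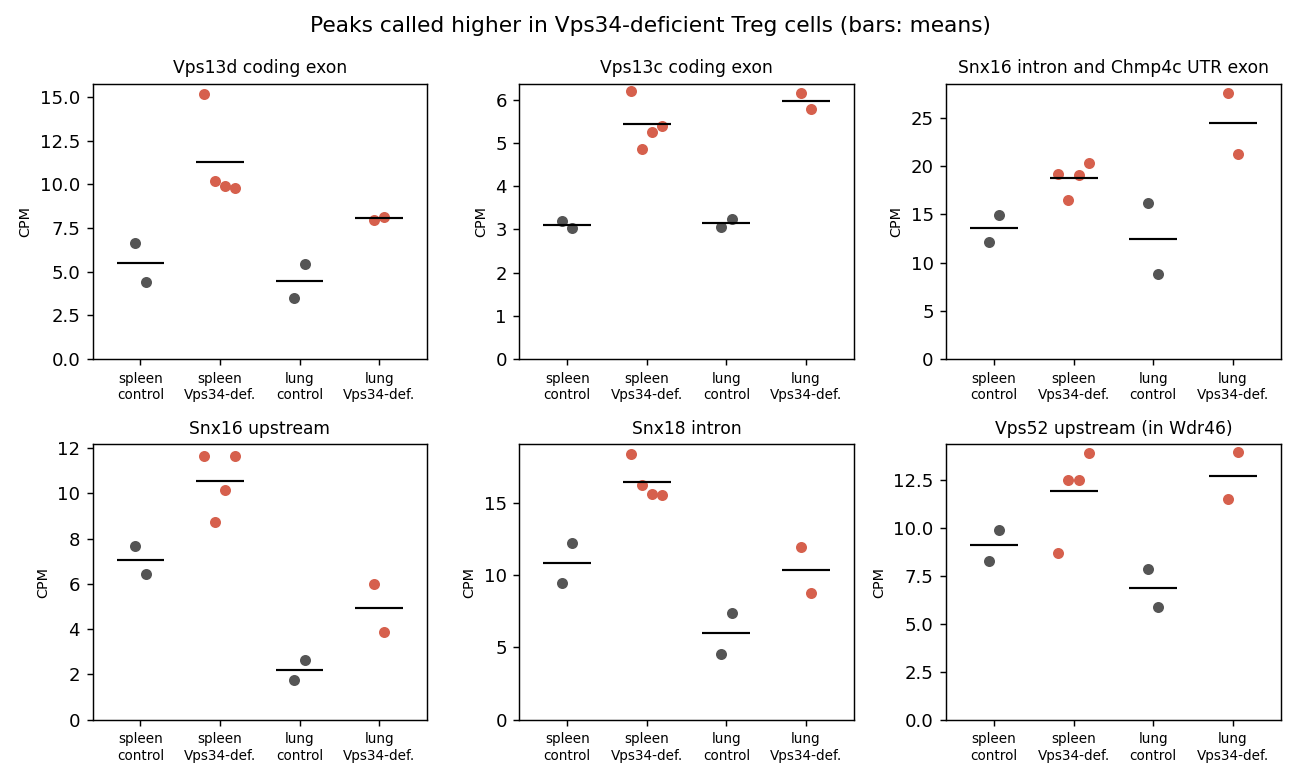
CPM in each of the 10 libraries (points) at 6 peaks called higher in Vps34-deficient Treg cells on average over both tissues, by tissue and genotype, with group means as bars; grey points are controls and red points Vps34-deficient. At Vps13d and Vps13c all 6 Vps34-deficient libraries lie above all 4 controls.

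Within spleen few members passed the test. No own promoter was called, against 0.109% higher and 0.304% lower among all promoter peaks. Away from promoters, 3 of 303 (0.99%) were higher, against 0.513%, and 2 (0.66%) lower, against 1.18%. The 3 higher peaks were all in Vps13d: the coding-exon peak above (1.01, SE 0.23, adjusted p = 0.0272), the intronic peak chr4:144986007-144986749 (0.54, SE 0.12, adjusted p = 0.0205), and a 210-bp peak of the width class, chr4:145061230-145061439 (1.36, SE 0.33, adjusted p = 0.0374). At the middle one, spleen controls gave 24.0 and 26.3 CPM and Vps34-deficient libraries 39.6, 34.9, 32.1 and 39.2, while lung gave 30.5 and 33.9 against 36.8 and 30.7. The groups separated in spleen and overlapped in lung. None of the 3 was called without spleen control 1, spleen control 2, spleen Vps34-deficient 1 or spleen Vps34-deficient 2, and the count of higher calls was then 0. It was 1 without spleen Vps34-deficient 4 or lung Vps34-deficient 1 and 5 without spleen Vps34-deficient 3, lung control 1 or lung control 2. The peak at chr4:144986007-144986749 was called in 1 of the 10 fits that each left out 1 library, the one without spleen Vps34-deficient 3. The 2 lower peaks were those of Snx29 (adjusted p = 2.82e-05) and Vps13b (-1.38, SE 0.27, adjusted p = 0.00745). Snx29 was called without each library in turn, and Vps13b was not without spleen control 1 or spleen control 2, when 1 lower call was left. The count of lower calls was 4 without spleen Vps34-deficient 3, lung control 1, lung Vps34-deficient 1 or lung Vps34-deficient 2, and 5 without lung control 2.

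In lung, lower calls outnumbered higher ones. Among own promoters none was higher, against 0.488% in the table, and 3 of 87 (3.45%) were lower, against 1.88%. Away from promoters 6 of 303 (1.98%) were higher, against 1.38%, and 14 (4.62%) lower, against 4.15%; 2 more lower peaks were at promoters of neighbouring genes, for a total of 19. The own promoters were those of Vps18, Snx32 and Snx30. At Vps18, a core subunit of HOPS and CORVET, chr2:119288246-119288917 gave 48.4 and 52.3 CPM in lung control and 36.8 and 33.7 in lung Vps34-deficient libraries, against 44.2 and 46.6 and then 44.6, 41.3, 38.2 and 40.9 in spleen. The lung groups separated (-0.52, SE 0.12, adjusted p = 0.0104; not called without any single control or lung Vps34-deficient library), and the spleen difference was -0.14 (SE 0.10, adjusted p = 0.581). At Snx32, chr19:5510408-5510745, lung gave 18.1 and 22.4 against 13.8 and 13.1 CPM (-0.59, SE 0.17, adjusted p = 0.0437), a call that held in 2 of the 10 fits that each left out 1 library (those without spleen Vps34-deficient 1 and lung control 1). The second Snx30 promoter peak was lower by -0.85 (SE 0.24, adjusted p = 0.0361), not called without either spleen control, lung control 2 or either lung Vps34-deficient library.

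Ranked by p, the first lung peaks away from promoters were those of Snx29, Vps13b, Vps8, Snx20 and Snx27. The 610-bp Snx29 peak fell by 0.96 on the log2 scale (SE 0.16, adjusted p = 0.000546), and was called without each library in turn, as was the Snx20 downstream peak (-2.52, SE 0.51, adjusted p = 0.00374). Vps13b was lower by -1.99 (SE 0.38, adjusted p = 0.00229; 0.0524 without lung control 2) and the 856-bp Snx29 peak by -1.55 (adjusted p = 0.0059), a call lost without lung Vps34-deficient 1. The second Vps8 intronic peak, chr16:21641945-21642462, gave 8.29 and 9.20 CPM in lung control against 3.83 and 2.15 in lung Vps34-deficient libraries (-1.53, SE 0.30, adjusted p = 0.00318; not called without lung Vps34-deficient 2). Its spleen values overlapped between genotypes. An intronic peak of Snx27, the nexin that links PDZ-binding receptors to retromer, chr3:94549150-94549419, held 20 and 48 counts in lung controls and 4 and 2 in lung Vps34-deficient libraries, so its size is poorly set (adjusted p = 0.00554; not called without lung control 2 or either lung Vps34-deficient library). Further lower calls on few counts were in an intron of the GARP and EARP gene Vps54, chr11:21265533-21265759, with 16 and 36 counts in lung controls and 0 and 4 in lung Vps34-deficient libraries, and in an intron of Vps41, chr13:18843674-18843937, with 20 and 38 against 8 and 0. The Vps54 call was lost without lung control 2 or lung Vps34-deficient 1, and that of Vps41 without either spleen control, spleen Vps34-deficient 2 or 4, lung control 2 or lung Vps34-deficient 2.

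The 6 higher lung peaks were at Chmp4c, Snx16, Vps13d, Vps52 and Snx24. The shared Snx16 and Chmp4c peak was higher by 1.0 (SE 0.22, adjusted p = 0.00842), the Snx16 upstream peak by 1.14 (SE 0.31, adjusted p = 0.0327) and the wider Vps13d upstream peak by 0.84 (SE 0.23, adjusted p = 0.0294). Upstream of Vps52, a GARP and EARP subunit, chr17:33947683-33948137 lies in the body of Wdr46 and gave 7.85 and 5.89 against 11.5 and 13.9 CPM (0.90, SE 0.25, adjusted p = 0.0335). Downstream of Snx24, chr18:53400790-53401372 held 2 and 12 counts in lung controls and 18 and 32 in Vps34-deficient libraries, and in Chmp4c chr3:10399537-10399784 held 6 and 8 against 24 and 22. The shared peak was not called without lung control 2 or lung Vps34-deficient 1, and the Snx16 upstream peak not without either lung control or lung Vps34-deficient 1. The Vps13d call was lost without lung control 2 or either lung Vps34-deficient library, and that of Vps52 without these or spleen Vps34-deficient 2. Snx24 was not called without lung control 1, spleen Vps34-deficient 2 or lung Vps34-deficient 2, and Chmp4c chr3:10399537-10399784 was called with none of the 10 libraries left out in turn. As totals, the 6 higher and 19 lower calls became 15 higher without lung control 1, 3 higher and 4 lower without lung control 2, 1 higher and 7 lower without lung Vps34-deficient 1, 7 lower without lung Vps34-deficient 2, 3 higher without spleen Vps34-deficient 2 and 12 lower without spleen control 2.

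Whether the genotype effect differed between the tissues was tested as an interaction. No member was called by edgeR, as none of the 97109 peaks was (0% of the table in either direction): 37 members had an unadjusted p below 0.05, the smallest adjusted p was 0.42, and DESeq2 called 0. A call in 1 tissue alone, such as the Vps18 promoter in lung or the Vps13d intron in spleen, therefore does not show a difference between tissues.

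Counted by complex, the genotype calls averaged over tissues were spread. Over all peaks tested, 3.52% were higher and 4.06% lower. The 11 genes grouped as other SNX, Snx29 and Snx20 among them, had 2 peaks higher and 8 lower of 88 (9.09% lower). The 4 Vps13 genes had 4 peaks higher and 3 lower of 59, HOPS and CORVET 1 higher and 3 lower of 31, the SNX-BAR group 2 higher and 3 lower of 61, ESCRT-III 1 higher and 1 lower of 37, and ESCRT-I 0 higher and 1 lower of 32. The 4 higher Vps13 peaks became 2 without spleen Vps34-deficient 1, lung control 2 or lung Vps34-deficient 1, and the 3 lower SNX-BAR peaks became 1 without lung Vps34-deficient 2. The 2 higher peaks of other SNX genes became 5 without lung control 1 and 1 without lung control 2, and the 2 of the SNX-BAR group became 1 without any of 6 libraries (spleen control 1, spleen Vps34-deficient 1, 2 and 3, lung control 2 and lung Vps34-deficient 1). The single calls of ESCRT-I, ESCRT-III and HOPS and CORVET each became 0 without at least 1 library, which was spleen control 1 for the higher HOPS and CORVET peak, lung control 2 for the higher ESCRT-III peak, either spleen control, spleen Vps34-deficient 1 or 4 or lung Vps34-deficient 1 for the lower ESCRT-III peak, and any lung library for ESCRT-I. The 8 lower peaks of other SNX genes lay between 6 and 9. None was called at the 15 retromer core peaks, the 9 retriever peaks or the 5 peaks of Vps4a and Vps4b. Partner genes of the same pathways without these symbols, 48 genes with 270 peaks, had 45 peaks higher in lung (22 of them 208 to 214 bp wide) and 20 lower, and 4 higher and 15 lower in Vps34-deficient cells on average. These are 16.7% and 7.41% of partner peaks for tissue, against 18.4% and 6.51% of all peaks tested, and 1.48% and 5.56% for genotype, against 3.52% and 4.06%. Of those 15, 11 belonged to the 15 genes of PI3P effectors and turnover, which have 100 of the 270 peaks. There were 5 at Eea1, which tethers early endosomes through PI3P, 3 at Wdfy2, 2 at Zfyve9 and 1 at Vac14. They were 11% of the peaks of that list, against 4.06% of all peaks tested. The list also had 2 higher peaks (2%, against 3.52%), both 208 to 214 bp wide. Whether partner calls hold without single libraries was not examined. The Eea1 intronic peaks ranged from chr10:95964337-95965247 (-0.73, SE 0.20, adjusted p = 0.0226) to chr10:95998375-95998575 (-2.50, SE 0.54, adjusted p = 0.00440).

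Motif letters were counted on both strands of the 300-bp windows around peak centres. The CLEAR core TCACGTGA, a form of the E-box known from lysosomal genes, was in 5 of the 87 own-promoter windows (5.75%), against 1.1% of 17408 promoter windows: those of Snx2, Snx16, Vps16, Vps26a and Vps33a. The E-box CACGTG was in 12 (13.8%, against 8.24%) and the ETS motif, spelled CCGGAAG, in 20 (23%, against 12.6%), in windows with a median GC content of 66.3% against 63.3%. Away from promoters, TGANTCA was in 42 of 303 member windows (13.9%, against 14.6%) and the RUNX letters in 44 (14.5%, against 12.1%). The TCF motif, spelled CTTTGAA, was in 21 of these windows (6.93%, against 8.66%), and the GATA motif, spelled AGATAA, in 41 (13.5%, against 17.1%). Among the 23 members lower in Vps34-deficient cells on average, 7 (30.4%) held the AP-1 letters, as did 29.8% of the 3932 such peaks in the table, and 7 held the RUNX letters (30.4%, against 20.1%). Among the 13 higher members, 3 (23.1%) held the AP-1 letters, against 13.1% of such peaks, and 3 the RUNX letters (23.1%, against 8.82%). Peaks 208 to 214 bp wide had at least 50% soft-masked repeat sequence in 4 of 35 member windows (11.4%) and 10.3% of the class, against 5.9% of all windows. These are matches of letters only and do not show binding.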

How the data were processed

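Per the labels' processing notes, the reads were handled with cutadapt 1.9, Picard 1.65, SAMtools, MACS2 2.1.0.20150603 and bedtools on mm10 (GRCm38). The study's methods name another mouse build, but peaks covered the starts of 51.1% of 22028 protein-coding genes by GRCm38 positions, against 2.22% to 2.81% once the starts were shifted. The authors kept Tn5-shifted, nucleosome-free reads, called peaks in each sample, kept those found in at least 50% of a group's replicates, merged them and deposited raw counts per merged peak.

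Counts were tested with edgeR 4.0.16 in R 4.3.3 (filterByExpr, which removed 276 of 97385 peaks; TMM scaling; quasi-likelihood F test; Benjamini-Hochberg adjustment over 97109 peaks). Tissue and averaged genotype effects came from an additive model, and the genotype effect in each tissue and the interaction from a model with 4 groups. CPM are counts scaled to the TMM-adjusted library total. Genes and features come from GENCODE vM21. The genes, lists and tests were chosen with earlier results of these data known. Named peaks were, per comparison and direction, up to 6 called members with the smallest p, and the strongest promoter peak of each gene; others named with them were chosen after their values were seen. Alternatives covered scaling, DESeq2 1.42.0, the count filter, halved counts, the fold threshold, the window (gene body, 5 kb), a replicate block, each tissue alone and each library left out; the width class and a crossed block were added after seeing the data. The procedure was tested on simulated counts. Fold changes are log2, and depth limits peaks with few counts. Items withheld for evaluation are not reported here.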

Additional observations from a re-analysis of the deposited data

Results flagged for a closer look

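1 of the 29 named peaks had a library that stood apart from the other 3 in spleen Vps34-deficient, the one group large enough for Dixon's gap test. At the Vps13d coding-exon peak chr4:145177518-145178228, spleen Vps34-deficient 1 was at 15.2 CPM and the others at 10.2, 9.90 and 9.79. Chance alone flags about 5% of groups. Averaged over tissues the call held without each library in turn, and in spleen alone it was lost without this one.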

How the results depend on the processing

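Of 41 named values, 25 kept their call under every alternative run, 25 kept it without each library in turn, and none changed direction; over all 685 values under alternatives, 609 stayed called and 76 did not. DESeq2 lost 0 of the 41, halved counts 3 and the replicate block 8, all of them in the genotype comparisons within a tissue. Deviations of same-numbered libraries correlated at -0.13 to 0.0863, which gave no sign that the replicate numbers pair the libraries. Pairing under other numbers was not tested. With the replicate block the averaged lower count was 11 (23 without it), the spleen higher count 0 and the lung higher count 1, or 2 with the lung numbers crossed. Tissue counts moved as follows: lower, 56 with no fold threshold and 17 in gene bodies alone; higher, 26 without peaks 208 to 214 bp wide. Averaged genotype higher calls were 8 in gene bodies alone and 8 without that width class. Spleen lower calls were 4 by DESeq2, 5 with no count filter, 4 with halved counts and 8, with 8 higher, from spleen libraries alone. Lung libraries alone gave 0 higher and 8 lower calls, and gene bodies or a 5 kb window 2 higher. The cause of these shifts was not tested, beyond fewer peaks or libraries entering. Leaving out single libraries gave 51 to 58 (tissue higher), 20 to 43 (tissue lower), 6 to 18 and 14 to 25 (genotype averaged, higher and lower), 0 to 5 and 1 to 5 (spleen), and 1 to 15 and 4 to 19 (lung). Interaction counts stayed at 0 in every alternative run. Lung medians were 32 to 44 counts per peak, against 46 to 72 in spleen. The part of depth in the lung calls was not tested beyond halving all counts.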
